A study of Vitis vinifera with 12 samples.

Results

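CTR7 is 1 of 8 grape genes that the annotation names CTR followed by a number, and it stood on 1 row of the 25210 rows measured in fruit peel and on 1 row of the 25253 measured in young leaf. The row was found as the one whose gene name, split at commas, holds CTR7 (NCBI gene 100263794). The gene was selected on its peel RPKM values, which earlier results of these data had shown to be far higher in Red globe than in Dilkhush, so its levels and cultivar differences are a description and none of them was tested. The other 7 CTR rows serve as context.

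Messenger RNA of Vitis vinifera was sequenced from 6 groups: fruit peels of Red globe, of Bangalore blue and of Dilkhush, and young leaves of the same cultivars. The series presents the cultivars as differing in anthocyanin, the red to blue pigment of grape skin. Each group had 2 libraries, 12 in all, but the deposited tables hold 1 column for each cultivar and tissue, in RPKM (reads per kilobase of transcript and by the mapped reads of the library). Every value is therefore the authors' value for a group, with no replicate error, and differences cannot be set against the spread between libraries. No treatment, transgene or mutation is named in the labels, and the sources used here do not state the ripening stage, the vines or the growing site.

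CTR proteins, called COPT in Arabidopsis, are small membrane proteins that assemble into a pore for reduced copper. They bring the metal into the cell or release it from the vacuole. Copper is the cofactor of plastocyanin in photosynthesis, of cytochrome oxidase in respiration and of copper and zinc superoxide dismutase. In Arabidopsis several COPT genes are transcribed more when copper is scarce, and vineyards often receive copper as a fungicide. The sources used here do not state the copper status of these vines, and the particular role of grape CTR7 is not annotated in the files.

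CTR7 was high in a single column. In peel it stood at 45.1 RPKM in Red globe, at 4.92 RPKM in Bangalore blue and at 0.368 RPKM in Dilkhush. In young leaf the order was turned round, with 1.31 RPKM in Red globe, 6.65 RPKM in Bangalore blue and 9.41 RPKM in Dilkhush. The cultivar with the highest peel value thus had the lowest leaf value, and the cultivar with the lowest peel value had the highest leaf value.

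Over all 6 columns the levels ran, from high to low, Red globe peel, Dilkhush leaf, Bangalore blue leaf, Bangalore blue peel, Red globe leaf and Dilkhush peel. Without a spread between libraries, it cannot be said which neighbours in this order differ. The middle values lay close together, between 4.92 and 9.41 RPKM, and whether the separate peel and leaf tables share a scale is not stated, so the order across tissues may rest on scales that differ. In bulk tissue, fewer cells that use a gene and less of its RNA per cell cannot be told apart.

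The place of CTR7 within its own column does not depend on a scale shared between tables. In Red globe peel 90.02% of rows were lower than CTR7, which ranked 2515th from the highest. In Bangalore blue peel 56.4% of rows were lower, and in Dilkhush peel 32.5%. In the leaf columns 33.0% of rows were lower in Red globe, 52.0% in Bangalore blue and 57.5% in Dilkhush. Among all rows CTR7 was thus high in 1 column and in the middle or lower part of the other 5. Among the 275 rows whose name holds a symbol it stood lower, at 94th in Red globe peel with 65.8% of them below it. In the other columns 14.2% to 32.7% of these 275 rows were lower.

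**Figure D1:**
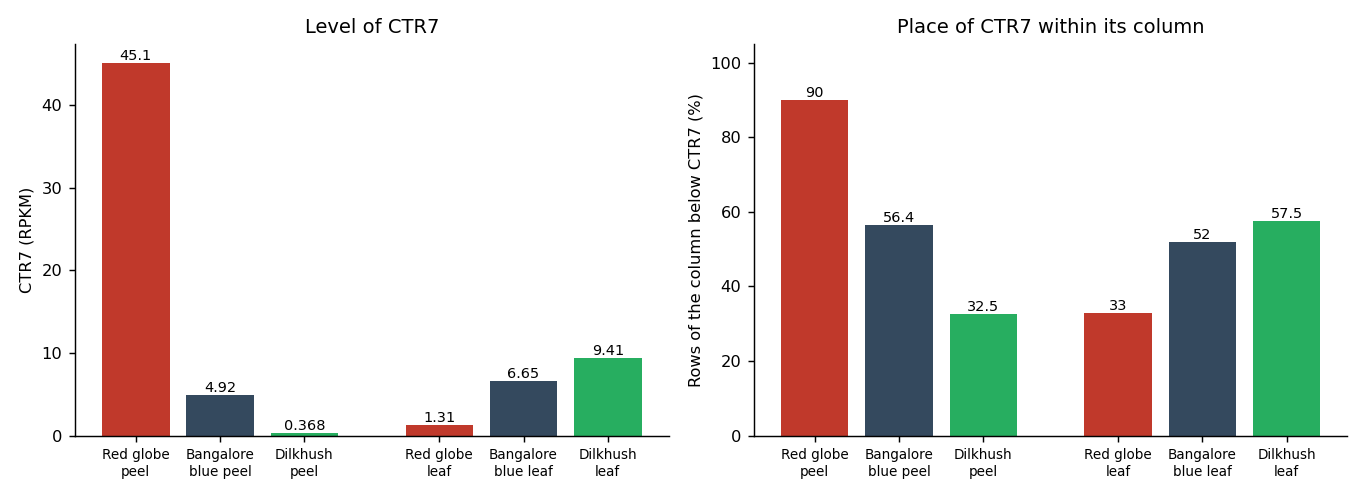
CTR7 in the 6 columns, as RPKM (left) and as the percent of rows of the same column that were lower (right), with peel and leaf from separate tables and no replicate error. Red globe peel stood at 45.1 RPKM with 90.02% of rows below it, while the other 5 columns lay between 0.368 and 9.41 RPKM.

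Set against the median row of each column, CTR7 was 14.7 times the median in Red globe peel, 1.87 times in Bangalore blue peel and 0.123 times in Dilkhush peel. In leaf it was 0.217 times the median in Red globe, 1.14 times in Bangalore blue and 1.58 times in Dilkhush. Rows of like rank in Red globe peel did not share its spread over cultivars, a spread on which CTR7, but not these rows, had been selected. The 3 rows just above CTR7 and the 3 just below, between 45.05 and 45.14 RPKM in Red globe peel, were at 31.2 to 75.6 RPKM in Bangalore blue peel and at 37.5 to 121 RPKM in Dilkhush peel.

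The peel comparisons asked how the skins of the 3 cultivars differ. To be called higher or lower, a row needed a difference of 2 or more in log2(RPKM + 1), which is 4-fold in RPKM + 1, and 10 RPKM in the higher cultivar. CTR7 was called higher in Red globe than in Dilkhush peel, at 45.1 RPKM against 0.368 RPKM, a log2 difference of 5.07. In this comparison 0.92% of all rows were called higher, and CTR7 was chosen with this difference known. Its difference ranked 16th of 25210 rows from the highest. Among the 275 rows whose name holds a symbol it ranked 3rd, after GST4 and UFGT. These are a transferase and a glucosyltransferase of the anthocyanin pathway. Unlike CTR7, both were also high in Bangalore blue peel. GST4 was 1279 RPKM in Red globe, 2246 RPKM in Bangalore blue and 9.86 RPKM in Dilkhush peel. UFGT was 308, 297 and 2.09 RPKM in the same order. The RPKM ratio of CTR7 was 122, but its Dilkhush value is low and the reads behind it are unknown.

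CTR7 was also called higher in Red globe than in Bangalore blue peel, at 45.1 RPKM against 4.92 RPKM, a log2 difference of 2.96 and a ratio of 9.17. Here 1.07% of all rows were called higher, and CTR7 ranked 126th of 25210. These 2 comparisons share the Red globe column. Of the 497 rows called between these columns 271 were higher and 226 lower in Red globe, and this split became 217 higher and 298 lower when columns were scaled to equal medians, a scaling that moved the median of all measured rows to -0.17. CTR7 stayed called, at 2.77.

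Between Bangalore blue and Dilkhush peel CTR7 was not called, because neither cultivar reached 10 RPKM. The values were 4.92 RPKM in Bangalore blue and 0.368 RPKM in Dilkhush, a log2 difference of 2.11. Of all rows 0.896% were called higher in this comparison. The difference exceeds the 4-fold size, so the call turns on the floor alone, and CTR7 was called when no floor was set, an alternative chosen after the data were seen.

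In young leaf CTR7 was not called in any of the 3 comparisons. Red globe against Dilkhush gave 1.31 RPKM against 9.41 RPKM, a log2 difference of -2.17, past the 4-fold size but just under the floor of 10 RPKM. In that comparison 1.1% of rows were called lower, and without a floor CTR7 was called lower too. Red globe against Bangalore blue gave 1.31 RPKM against 6.65 RPKM, a log2 difference of -1.73, where 1.43% of rows were called lower. In RPKM itself, Dilkhush leaf was 7.18 times and Bangalore blue leaf 5.08 times Red globe leaf. Bangalore blue and Dilkhush leaf were closest, at 6.65 RPKM and 9.41 RPKM, a log2 difference of -0.44, where 0.653% of rows were called lower.

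Other markers also differed in Red globe leaf. PSBP1, a photosystem II subunit, was 494 RPKM in Red globe, 2084 RPKM in Bangalore blue and 1758 RPKM in Dilkhush leaf. PSBP2, a like subunit, was 54.4, 74.7 and 95.1 RPKM in the same order of cultivars. PSBP1 and PSBP2 were lowest in Red globe leaf, as was CTR7. UFGT and GST4 were instead highest in Red globe leaf. UFGT was 11.6 RPKM in Red globe, 3.03 RPKM in Bangalore blue and 7.87 RPKM in Dilkhush leaf. GST4 was 162, 2.58 and 53.2 RPKM in the same order. The part of these differences between leaf columns in the CTR7 values was not tested. In peel, PSBP1 was 239 RPKM in Red globe, 350 RPKM in Bangalore blue and 483 RPKM in Dilkhush, the reverse of the CTR7 order.

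**Figure D2:**
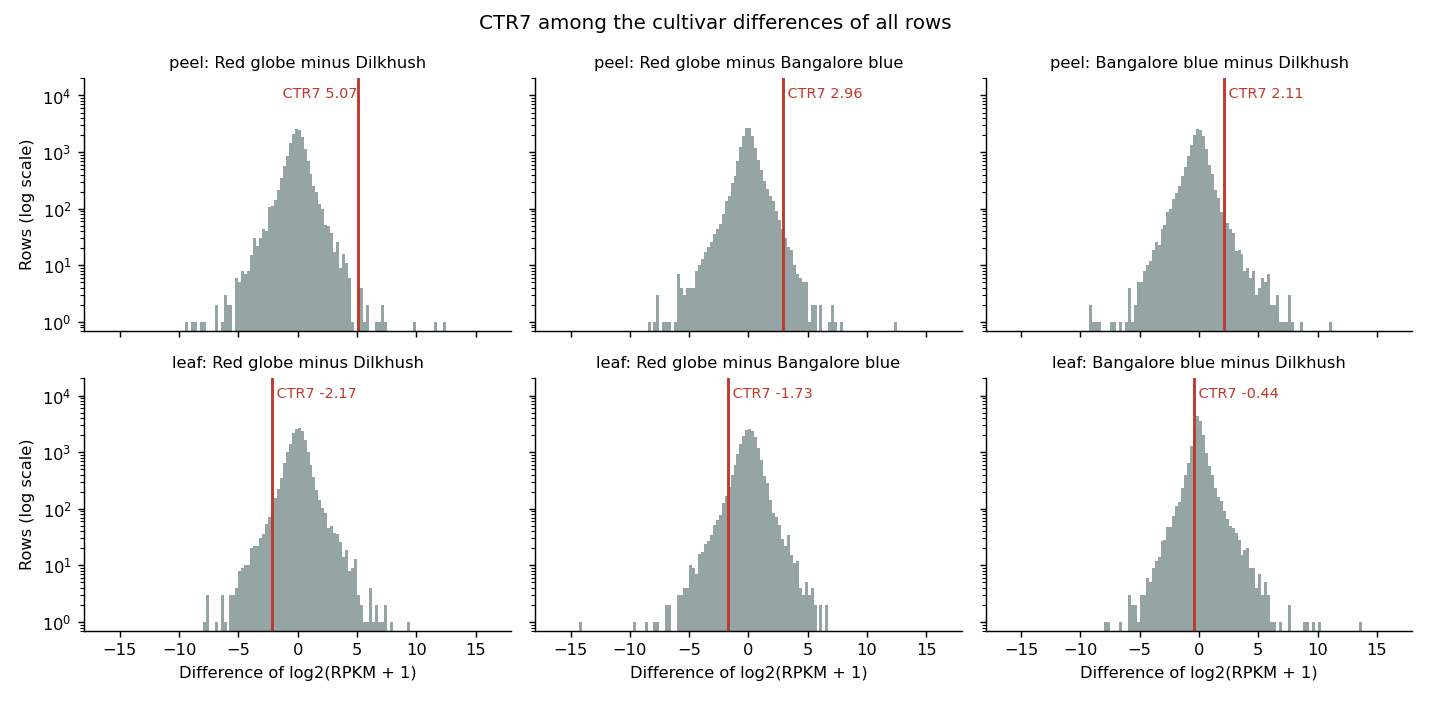
Numbers of rows (log scale) by difference of log2(RPKM + 1) in the 6 cultivar comparisons, over rows with at least 1 RPKM in either cultivar, with CTR7 as a vertical line. The line lies far right of the bulk for Red globe minus Dilkhush peel (5.07) and left of it for Red globe minus Dilkhush leaf (-2.17).

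Among the 4 CTR rows above 0 in every peel column (CTR1, CTR2, CTR7 and CTR8), CTR7 had the widest range. CTR1 was nearly level in peel, at 34.4 RPKM in Red globe, 36.0 RPKM in Bangalore blue and 35.3 RPKM in Dilkhush. Grape CTR1 has been studied as a copper transporter of the vacuolar membrane. The symbol CTR1 also names an ethylene-signalling kinase in Arabidopsis, and the files pair no description with the row. In leaf CTR1 was 12.6 RPKM in Red globe, 19.2 RPKM in Bangalore blue and 16.2 RPKM in Dilkhush. Its highest value was 1.05 times its lowest in peel, against 122 times for CTR7.

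Because CTR1 was level between peels, a choice made after its values were seen, it offers a ratio that does not change with the scaling of a column. CTR7 was 1.31 times CTR1 in Red globe peel, 0.137 times in Bangalore blue peel and 0.0104 times in Dilkhush peel. In leaf the ratio was 0.104 in Red globe, 0.346 in Bangalore blue and 0.580 in Dilkhush. The ratio had the same order of cultivars as CTR7 in each tissue. In peel it had to repeat the CTR7 order, because CTR1 was picked for being level there, so it adds no separate support. This ratio shows unequal levels of the 2 rows, and not that CTR1 was constant.

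CTR8 was 22.9 RPKM in Red globe, 29.9 RPKM in Bangalore blue and 12.1 RPKM in Dilkhush peel. In leaf it was 12.9, 16.3 and 8.24 RPKM in the same order of cultivars. Bangalore blue was highest and Dilkhush lowest in both tissues, so the order of CTR8 did not turn round. CTR2 was the leading CTR row of every leaf column, at 18.6 RPKM in Red globe, 48.1 RPKM in Bangalore blue and 31.7 RPKM in Dilkhush. In peel CTR2 was 5.06, 4.29 and 4.22 RPKM in that order, a narrow range.

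CTR6, the annotated neighbour of CTR7, had low values in peel and was above CTR7 in each leaf. It was 2.77 RPKM in Red globe peel, listed at 0 in Bangalore blue peel and 0.673 RPKM in Dilkhush peel. In leaf it was 4.29 RPKM in Red globe, 9.22 RPKM in Bangalore blue and 11.6 RPKM in Dilkhush. Red globe was thus highest in peel and lowest in leaf for CTR6 as for CTR7, and the leaf order of the 3 cultivars was the same for both. In peel the order of the other two cultivars differed between CTR6 and CTR7.

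The remaining CTR rows were at or near 0. CTR3 was 0.173 RPKM in Red globe peel and listed at 0 in the other 5 columns. CTR5 was 0.215 RPKM in Red globe leaf and listed at 0 elsewhere, and CTR4 was listed at 0 in every column. No detection limit can be given for these zeros, since the depth is unknown. CTR genes are related to one another, and the sources used here do not state how reads that match several of them were counted.

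The sum over the 8 CTR rows shows how much of their joint signal CTR7 made up. It includes CTR1, for which the files pair no description with the row. CTR7 was 40.9% of the summed CTR RPKM in Red globe peel, 6.54% in Bangalore blue peel and 0.699% in Dilkhush peel. It was 2.62% in Red globe leaf, 6.69% in Bangalore blue leaf and 12.2% in Dilkhush leaf. The summed RPKM was 110.3 in Red globe, 75.1 in Bangalore blue and 52.7 in Dilkhush peel. Without CTR7 the peel sums were 65.2, 70.2 and 52.3 RPKM in that order, so Red globe led the peels only with CTR7 counted. CTR7 was the highest CTR row in Red globe peel, whereas CTR1 was the highest in both other peels.

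**Figure D3:**
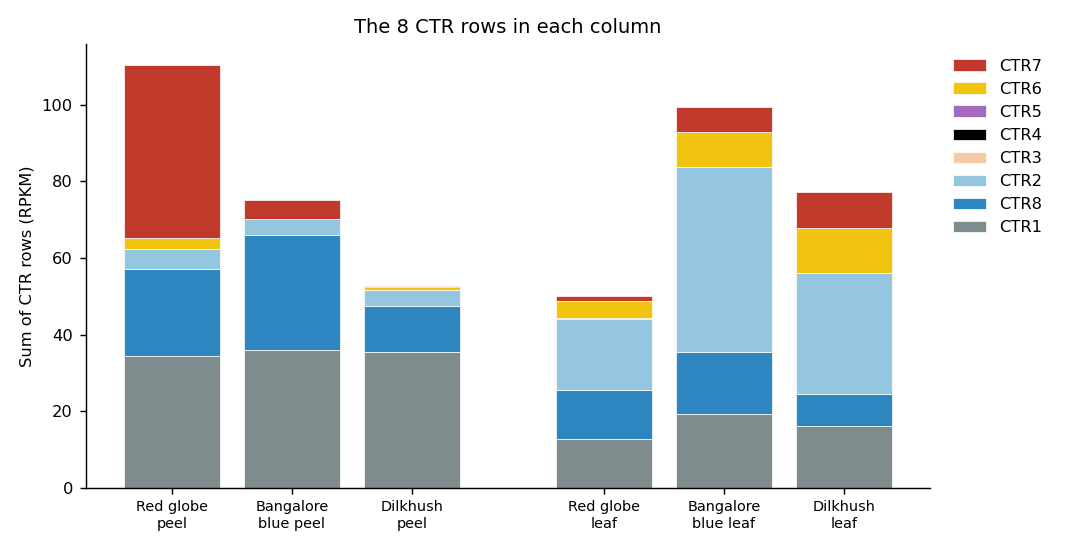
Summed RPKM of the 8 CTR rows in each column, with each row as a segment, with peel and leaf from separate tables. CTR7 makes up 40.9% of the sum in Red globe peel and 12.2% or less in the other 5 columns, and CTR2 leads in the leaf columns.

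A wider list of copper genes could be matched by symbol only in part, since the reference gives no descriptions. Its 9 rows were the 8 CTR genes and SODCP, for which the reference gives the synonym CSD2, the chloroplast copper and zinc superoxide dismutase. In each tissue 6 of them reached 1 RPKM in some cultivar. Of these 6, CTR7 alone was called in Red globe against Dilkhush peel and again against Bangalore blue peel, where 2.19% and 1.97% of all rows were called in either direction. None of the 6 was called between Bangalore blue and Dilkhush peel, with 2.31% of all rows called.

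In leaf none of the 6 rows was called in any comparison, where 2.44% of all rows were called for Red globe against Dilkhush, 2.39% for Red globe against Bangalore blue and 1.81% for Bangalore blue against Dilkhush. The median log2 difference of the 6 rows in leaf was -0.90 for Red globe against Dilkhush, with 5 lower and 1 higher, or -0.74 without CTR7 and -0.34 over all 9 rows with no filter. It was -0.81 for Red globe against Bangalore blue, with all 6 lower in Red globe, or -0.68 without CTR7 and -0.57 with no filter. Over all rows at 1 RPKM or more the medians were 0.02 and 0.05.

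In peel the list holds CTR7, which was selected on these same values, so the median of the other 5 measured rows is given first. It was 0.22 for Red globe against Dilkhush and -0.07 for Red globe against Bangalore blue, beside -0.05 and 0.02 over all rows at 1 RPKM or more. With CTR7 counted the medians were 0.54 and 0.06. For Bangalore blue against Dilkhush the 5 rows had a median of 0.03 in peel and 0.23 in leaf, or 0.12 and -0.04 with CTR7, beside -0.06 and -0.04 over all such rows.

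SODCP was lowest in Red globe in both tissues. It stood at 50.3 RPKM in Red globe, 149 RPKM in Bangalore blue and 129 RPKM in Dilkhush peel, and at 85.6, 137 and 180.2 RPKM in the leaves in the same order. In peel the log2 difference was -1.34 for Red globe against Dilkhush and -1.55 for Red globe against Bangalore blue, both short of the 4-fold size. The order of SODCP in peel was thus unlike that of CTR7, with Red globe lowest, while both were lowest in Red globe leaf. In Arabidopsis, transcripts of this enzyme are cut under the direction of a microRNA that accumulates when copper is scarce.

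CTR7 lies at the end of a run of related genes. All 8 CTR symbols were found in the RefSeq gene table of assembly GCF_030704535.1, where CTR4, CTR5, CTR6 and CTR7 follow each other with no annotated gene between them, and CTR3 and CTR2 are next to each other elsewhere. No source used here states the build of the deposited files, so the order of genes alone was used, without coordinates. Within the run, CTR4 and CTR5 were at or near 0 in every column. CTR7 was above CTR6 in Red globe peel, at 45.1 against 2.77 RPKM, and in Bangalore blue peel, at 4.92 RPKM against 0. In Dilkhush peel CTR6 was the higher, at 0.673 against 0.368 RPKM. CTR6 was also the higher in each leaf, at 4.29 against 1.31 RPKM in Red globe and 9.22 against 6.65 RPKM in Bangalore blue. In Dilkhush leaf CTR6 was at 11.6 RPKM against 9.41 RPKM for CTR7.

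The 3 genes on the other side of CTR7 carry no symbol and did not have its peel order. LOC100262206, the nearest, was 29.3 RPKM in Red globe, 21.8 RPKM in Bangalore blue and 42.3 RPKM in Dilkhush peel. In leaf it was 1.48, 1.52 and 0.229 RPKM in the same order. LOC100267375 was 10.9, 12.6 and 20.5 RPKM in peel, and LOC104879538 was 4.19, 4.15 and 9.79 RPKM, again in that order. Among the peels all 3 were highest in Dilkhush, where CTR7 was lowest. In leaf LOC100267375 was 1.499 RPKM in Red globe, 5.34 RPKM in Bangalore blue and 5.15 RPKM in Dilkhush. LOC104879538 was 17.8, 29.5 and 29.0 RPKM in the leaves in that order. These 2 genes were lowest in Red globe among the leaves, as CTR7 was, while LOC100262206 was lowest in Dilkhush.

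**Figure D4:**
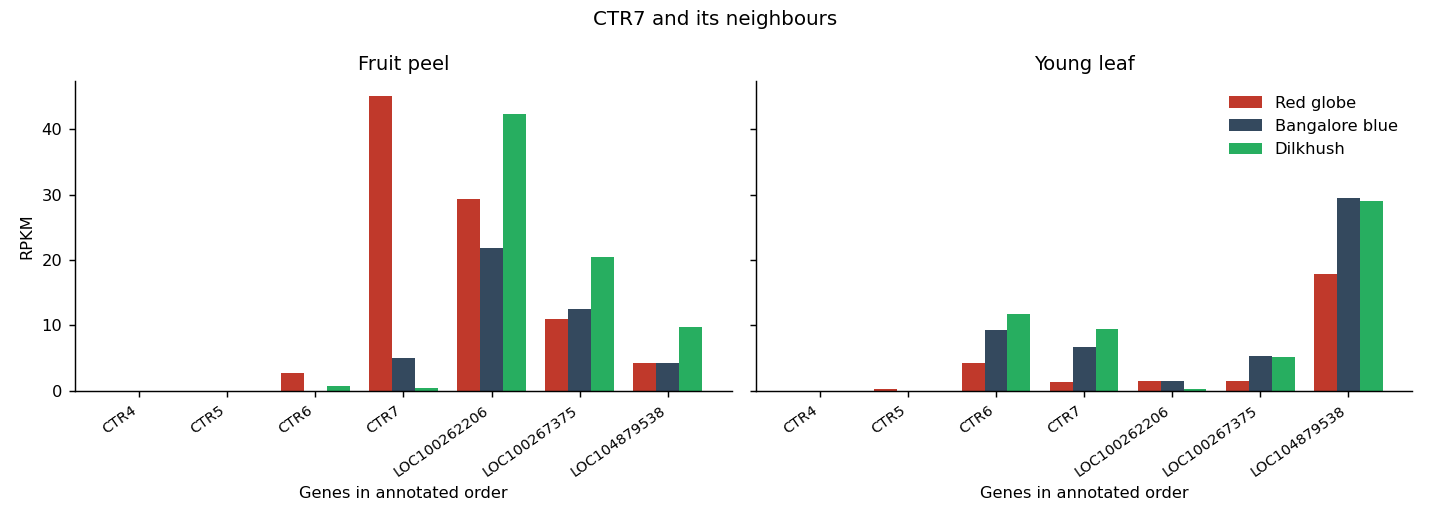
RPKM of CTR7 and the 3 genes on each side in annotated order, in peel (left) and leaf (right), with 1 bar for each cultivar and no replicate error. The 45.1 RPKM of CTR7 in Red globe peel is not matched by CTR6, at 2.77, and the next gene, LOC100262206, is highest in Dilkhush at 42.3.

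The order seen in CTR7 was compared with that of other rows. Of 14931 rows found once in both tables with at least 1 RPKM in some column of each, 12.05% were highest in Red globe peel and lowest in Red globe leaf, and 3.82% had the full cultivar order of CTR7 in both tissues. The order alone was therefore shared by many rows. Among the 5 CTR rows in this set, 3 had Red globe highest in peel and lowest in leaf, namely CTR2, CTR6 and CTR7. CTR7 stood apart by size in peel, while the peel range of CTR2 was narrow.

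Rows with a like pattern were found by Pearson's r of log2(RPKM + 1) over the 6 columns, among 12333 rows that reached 10 RPKM in some column. These 6 columns are not replicates, and r describes shape without size. An r of 0.9 or more with CTR7 was found for 42 rows, 0.341% of those compared. The closest rows carry no symbol: LOC100256705 had r = 0.99, and LOC100250760 and LOC100854874 had r = 0.98 each. Their ranges were far narrower than that of CTR7. LOC100256705 was 59.7 RPKM in Red globe, 38.5 RPKM in Bangalore blue and 24.3 RPKM in Dilkhush peel, and 29.5, 37.9 and 45.6 RPKM in the leaves in that order.

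Of 202 compared rows with a symbol, CTR7 included, the most alike were FCA (r = 0.91), ETR1 (0.86), VINST1 (0.82), MLO11 (0.80) and HT5 (0.76). FCA, an RNA-binding protein that promotes flowering in Arabidopsis, was 25.1, 21.5 and 14.5 RPKM in Red globe, Bangalore blue and Dilkhush peel. ETR1, an ethylene receptor that in Arabidopsis binds ethylene through a copper ion, was 33.0, 31.7 and 23.7 RPKM in the same order. Both had narrow ranges, so their likeness is one of order more than of size.

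The other three named rows varied more. VINST1, a stilbene synthase whose near-identical copies may share its reads, was 13.0 RPKM in Red globe, 3.48 RPKM in Bangalore blue and 0.134 RPKM in Dilkhush peel. In leaf it was low, at 0.387, 0.0443 and 1.70 RPKM in the same order of cultivars, and lowest in Bangalore blue, unlike CTR7. MLO11, whose family includes susceptibility genes for powdery mildew, was 11.8, 0.735 and 0.819 RPKM in the same order in peel, and 1.47, 3.07 and 13.5 RPKM in leaf. HT5, a hexose transporter, was 28.0, 4.004 and 1.03 RPKM in peel, and 7.92, 24.0 and 51.4 RPKM in leaf. HT5 repeated the full cultivar order of CTR7 in both tissues, as FCA, ETR1 and the 3 LOC rows did, with a peel range narrower than that of CTR7 but wider than theirs. With the mean of each tissue subtracted, its r was 0.98, the highest among named rows.

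**Figure D5:**
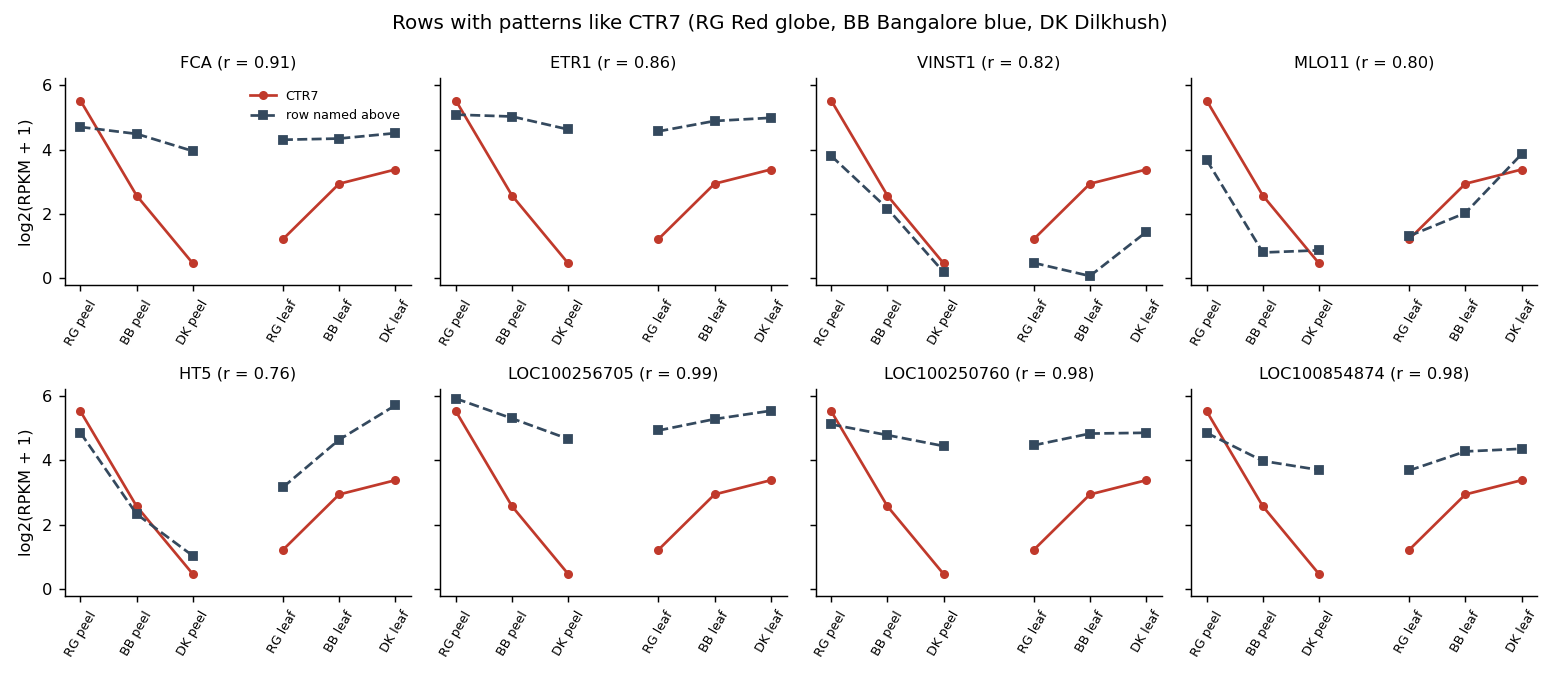
log2(RPKM + 1) of CTR7 (red circles) and of 8 rows with like patterns (dark squares) over the 6 columns, peel left of leaf, with Pearson's r over 6 columns in each title. HT5, FCA, ETR1 and the 3 LOC rows have the same cultivar order as CTR7 in both tissues, and all but HT5 stay within narrow ranges.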

How the data were processed

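The authors deposited a peel table and a leaf table of RPKM values, each with 1 column for every cultivar, per the file headers. The mRNA kit kept strand, per the labels' protocols. The submitters' processing notes name the tools TopHat2 (2.1.1) and Cufflinks (2.2.1) without their roles. The sources used here do not state how 2 libraries became 1 column, the build or the treatment of shared reads. Since RPKM is relative to a column's total reads, an abundant RNA lowers all other values.

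Columns were matched to groups by the start of the sample titles. The planned linear model over libraries could not be fitted to 1 column per group, so differences of log2(RPKM + 1) were taken within a table (Python 3.11.15, pandas 2.3.3, numpy 2.4.6), with no p-values. On this scale differences of low rows are understated. Rows were called at a difference of 2 with at least 10 RPKM in the higher cultivar. Sequencing depth is unknown, so no counting interval is given. CTR7, the gene lists and the rules were chosen with earlier results of these data known. Named genes were CTR7, the other CTR rows, SODCP and the 5 rows with and 3 without a symbol of highest r. Also named were 3 rows on each side in rank and 3 on each side in annotated order. PSBP1, PSBP2, UFGT and GST4 served as tissue markers. Calling and likeness steps were tested on simulated data with planted rows and a chosen noise. This checks the steps and not the error of these columns. Alternatives were a pseudocount of 0.1, quantile normalization, scaling to equal medians or to equal totals without transfer RNA, no floor, 5 RPKM in 2 columns, and rows of 1 name only.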

Additional observations from a re-analysis of the deposited data

Results flagged for a closer look

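Over the 9 rows of the copper list and 3 comparisons, 8 differences had opposite directions in peel and leaf. The difference between tissues was not tested, since each group has 1 column. The peel minus leaf gap in log2 difference for CTR7 was 7.25 for Red globe against Dilkhush (5.07 in peel, -2.17 in leaf), 4.69 for Red globe against Bangalore blue (2.96 and -1.73) and 2.56 for Bangalore blue against Dilkhush (2.11 and -0.44). These 3 gaps share columns. Among 14931 rows at 1 RPKM or more in both tables they ranked 7th, 34th and 173rd from the highest, while opposite directions as such were common, at 53.4%, 45.3% and 40.4% of these rows. CTR7 was selected on its peel values, which enter each gap, so its high ranks follow in part from that selection.

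For CTR6 the gap was 2.43 for Red globe against Dilkhush and 2.86 for Red globe against Bangalore blue, where the Bangalore blue peel value is listed at 0. For CTR2 it was 0.95 and 1.52 in the same comparisons, with peel differences of only 0.22 and 0.19. For SODCP it was 0.60 for Bangalore blue against Dilkhush.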

How the results depend on the processing

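No paired analysis was possible because the columns carry no replicate number, and for the same reason no library could be left out. Over a pseudocount of 0.1, the 3 scalings and no floor, the CTR7 difference ran from 5.01 to 6.59 for Red globe against Dilkhush peel, from 2.77 to 3.17 for Red globe against Bangalore blue peel and from 2.11 to 3.42 for Bangalore blue against Dilkhush peel. In leaf it ran from -2.75 to -2.10, from -2.26 to -1.64 and from -0.49 to -0.42 in the same comparisons. None changed sign, and calls changed under no floor alone, where 2.11 (Bangalore blue against Dilkhush peel) and -2.17 (Red globe against Dilkhush leaf) were called. Where 5 RPKM in 2 columns was required, CTR7 itself was not kept in peel. Scaling to equal totals without transfer RNA moved the median of all measured leaf rows to 0.12 for Red globe against Dilkhush and to 0.17 for Red globe against Bangalore blue, in the direction opposite to CTR7. The small peel differences of CTR1 between Red globe and each other cultivar changed sign between scalings.

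Counts of called rows under 5 RPKM in 2 columns were 350 for Red globe against Dilkhush peel (553 as reported), 379 for Bangalore blue against Dilkhush peel (582), 399 for Red globe against Bangalore blue leaf (604) and 268 for Bangalore blue against Dilkhush leaf (457). With no floor they were 797 for Red globe against Bangalore blue peel (497), 878 for Bangalore blue against Dilkhush peel and 715 for Bangalore blue against Dilkhush leaf. Of the 5 most alike named rows 3 were again among the first 5 with tissue means subtracted, and 2 by root mean square difference. Of the 3 unnamed rows 0 were again among the first 3 under either. The list of like rows thus depends on the measure. The medians of the copper genes given in the text rest on 6 or fewer rows, or on 9 rows with no filter. With no filter they were 0.22, 0.00 and 0.02 in peel for Red globe against Dilkhush, Red globe against Bangalore blue and Bangalore blue against Dilkhush, and 0.00 for the last pair in leaf. Unknown depth limits what low values such as 0.368 RPKM can show.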
